A study of Homo sapiens with 12 samples.

Results

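Among the genes that rosiglitazone (RGZ) changed in A375 cells, 198 of the 23705 genes counted kept a large share of their change when the antagonist T0070907 was given together with RGZ, 33 of them higher and 165 lower than with vehicle. A375 is an established cell line from a human metastatic melanoma, and a single line was used, at passages 30 to 32, in DMEM with 10% FBS. The cells received DMSO vehicle, 5 μM RGZ, 2 μM T0070907, or 5 μM RGZ with 2 μM T0070907 (the combination) for 24 h, and both compounds were dissolved in DMSO. Each condition was sequenced in 3 independent experiments, with RNA from technical replicates pooled inside an experiment, which gave 12 libraries with totals from 8319455 to 11375227 counts. The purpose of the antagonist was to separate the effects of RGZ that pass through the receptor from those that do not.

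RGZ binds and activates PPARγ, a nuclear receptor that pairs with the retinoid X receptor on DNA and raises genes for fatty acid uptake, storage and oxidation. T0070907 binds the same ligand pocket and keeps agonists from activating the receptor. A gene whose response to RGZ is the same with and without such an antagonist is usually treated as a candidate for an effect outside the receptor, although incomplete antagonism leaves partial responses of true targets as well.

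The members were selected on measured values. A level here is CPM, the count of a gene scaled to a fixed library total (counts per 1000000), and a difference is taken within an experiment on log2(CPM + 0.5), a scale that understates changes of genes with few counts. A member had a mean of 5 CPM or more over the 12 libraries, a mean difference between RGZ and vehicle of at least 0.3 in size, the same sign of both RGZ minus vehicle and combination minus vehicle in 3 of 3 experiments, and a mean combination minus vehicle of at least 50% of RGZ minus vehicle. Of 10926 genes with 5 CPM or more, 1303 met the size and sign conditions for RGZ, of which 399 were higher and 904 lower with RGZ. The combination had the same sign as RGZ in 3 of 3 experiments for 362 of these, and 198 reached the 50% limit, that is 8.27% of the higher and 18.3% of the lower genes. The size and sign of RGZ minus vehicle and of combination minus vehicle therefore describe the selection and carry no test.

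**Figure D1:**
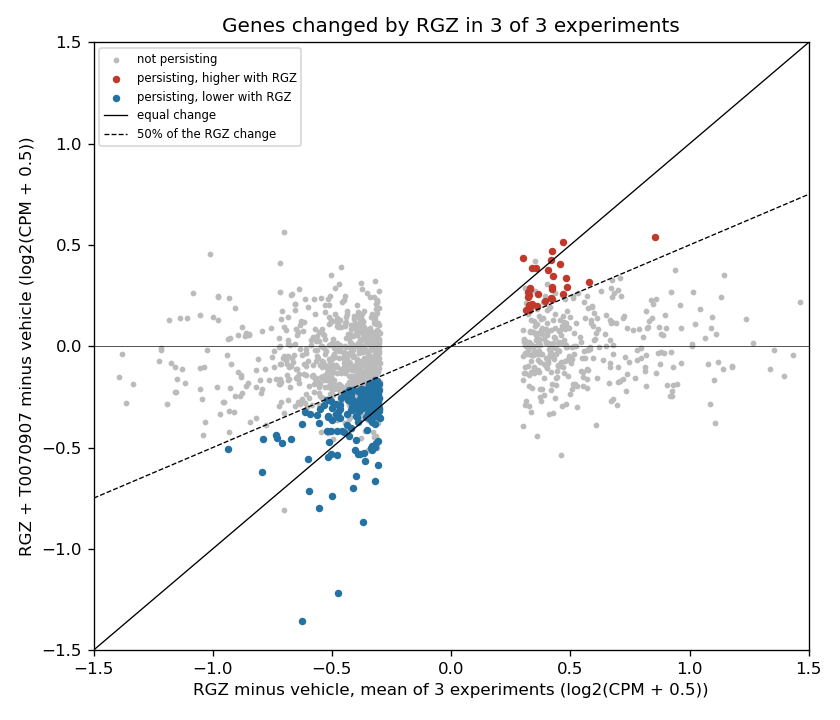
Each point is a gene changed by RGZ, with the mean RGZ minus vehicle over 3 experiments on the x axis and the mean RGZ + T0070907 minus vehicle on the y axis, both in log2(CPM + 0.5). The 198 persisting genes (red higher, blue lower) lie past the dashed 50% line, the blue points outnumber the red, and 20 genes with a change beyond 1.5, none of them persisting, lie outside the axes.

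The members showed modest changes. The median RGZ minus vehicle was 0.37 for the 33 higher members and -0.38 for the 165 lower members, against 0.49 and -0.43 for the 366 higher and 739 lower genes that did not persist. A change of more than 0.5 in size was seen in 2 of the 33 higher and 31 of the 165 lower members. The median member kept 75.3% of its RGZ change in the combination, from 50.04% to 255%, and 47 members had a larger difference with the combination than with RGZ alone. The canonical target FABP4, a fatty acid binding protein, stood on the other side of the rule, since its difference was 8.55 with RGZ and 1.64 with the combination. PPARG itself was no member, with differences of -0.24 and -0.02.

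The regulatory sequences in front of members were examined because genes that kept their change might share an element. RefSeq promoters (GRCh38.p14, the 250 bases before the start of transcription) were found for 28 of the 33 higher and 123 of the 165 lower members. The 4 shown belong to the lower members TXNIP and FREM2, which had the largest decreases, and to the higher members S100A4 and SCD. Among the higher members, S100A4 and SCD had the lowest adjusted p-values for the combination against T0070907 alone, in the blocked edgeR test described below. The rule also used the combination libraries, so these p-values are partly set by the selection and served only to choose the sequences. Without the block, edgeR called neither gene. The 4 sequences are written 5′ to 3′ on the strand of the gene, with motif matches in capitals.
TXNIP, chr1:145996580-145996829, minus strand: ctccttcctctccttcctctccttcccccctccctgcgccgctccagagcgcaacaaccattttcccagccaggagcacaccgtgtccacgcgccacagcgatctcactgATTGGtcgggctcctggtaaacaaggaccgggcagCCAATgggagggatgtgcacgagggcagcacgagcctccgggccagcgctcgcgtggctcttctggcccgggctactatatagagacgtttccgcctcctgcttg
FREM2, chr13:38686827-38687076, plus strand: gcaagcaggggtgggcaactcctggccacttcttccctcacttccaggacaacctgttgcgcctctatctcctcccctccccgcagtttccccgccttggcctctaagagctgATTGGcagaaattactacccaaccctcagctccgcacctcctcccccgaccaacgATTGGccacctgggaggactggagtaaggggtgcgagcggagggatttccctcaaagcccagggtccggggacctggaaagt
S100A4, chr1:153545807-153546056, minus strand: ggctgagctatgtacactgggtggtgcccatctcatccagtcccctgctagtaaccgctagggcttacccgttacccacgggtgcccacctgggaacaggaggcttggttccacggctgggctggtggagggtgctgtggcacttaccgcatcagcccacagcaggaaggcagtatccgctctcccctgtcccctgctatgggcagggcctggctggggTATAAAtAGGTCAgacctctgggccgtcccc
SCD, chr10:100346983-100347232, plus strand: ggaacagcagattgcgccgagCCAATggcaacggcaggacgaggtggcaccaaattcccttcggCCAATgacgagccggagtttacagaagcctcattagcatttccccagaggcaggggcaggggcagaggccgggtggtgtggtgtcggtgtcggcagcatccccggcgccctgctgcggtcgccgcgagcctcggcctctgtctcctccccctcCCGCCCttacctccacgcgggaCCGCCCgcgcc

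The capitals mark CCAAT boxes (CCAAT or its reverse complement ATTGG) in TXNIP, FREM2 and SCD, GC boxes (GGGCGG or CCGCCC) in SCD, and in S100A4 a TATA box (TATAAA) followed by the nuclear receptor half-site AGGTCA. Both strands were searched for these motifs, for the E-box CACGTG, for the cAMP response element and for direct repeat 1, the PPAR element made of a tandem pair of AGGTCA sites with a single base between, whose matches also count as half-sites. Direct repeat 1 matched exactly in 0 of 28 higher and 0 of 123 lower member promoters, and in 2 of 8997 promoters of genes with 5 CPM or more. The half-site was present in 10.7% of the higher and 4.07% of the lower members against 7.87% of those 8997 promoters, and the E-box in 7.14% and 8.94% against 9.24%. CCAAT boxes were present in 28.6% and 30.1% against 35.9%, and GC boxes in 82.1% and 62.6% against 69.1%. TATA boxes were present in 7.14% and 7.32% against 4.73%, and the cAMP response element in 3.57% and 4.07% against 3.11%. A match is only a run of letters, and its absence from this window says nothing about binding of a factor.

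Among the lower members, TXNIP, which encodes a protein that binds thioredoxin and restrains glucose uptake, had the largest decrease. Its level was 23.5, 22.1 and 15.9 CPM with vehicle in experiments 1, 2 and 3, and 11.2, 12.8 and 7.63 CPM with RGZ. It was 27.3, 26.1 and 20.8 CPM with T0070907, and 15.2, 17.0 and 10.8 CPM with the combination. Within each experiment the order was the same, with T0070907 highest, then vehicle, then the combination, then RGZ. RGZ minus vehicle was -0.94 ± 0.15 (SD, n = 3) and combination minus vehicle was -0.51 ± 0.13 (SD, n = 3), so that TXNIP was near the 50% limit of the rule.

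FREM2, a basement membrane protein, was at 12.4, 6.73 and 15.3 CPM with vehicle and at 6.48, 3.44 and 9.81 CPM with RGZ. With the combination it was at 5.58, 5.57 and 10.6 CPM, below vehicle in each experiment but by only 0.25 in experiment 2 against 1.09 in experiment 1. COL1A1, a chain of type I collagen, went with vehicle from 5.59 CPM in experiment 3 to 27.6 CPM in experiment 2, and the groups overlapped. Its within-experiment differences were -0.79 ± 0.15 (SD, n = 3) with RGZ and -0.46 ± 0.33 (SD, n = 3) with the combination. SLIT2, a secreted ligand of ROBO receptors, differed by -0.73 ± 0.25 (SD, n = 3) and -0.45 ± 0.29 (SD, n = 3). THBS1, which encodes the matrix glycoprotein thrombospondin-1, was at 1977, 1252 and 1703 CPM with vehicle and 1255, 1220 and 1344 CPM with the combination, so that the vehicle and combination libraries of experiment 2 differed by only 0.04.

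The rest of the 10 largest decreases had varied roles. The homeobox factor PKNOX2 differed by -0.74 with RGZ and -0.44 with the combination, and the zinc finger homeobox factor ZFHX3 by -0.63 and -0.38. RCAN3, a regulator of the phosphatase calcineurin, differed by -0.71 and -0.48, and LPAR1, a receptor for lysophosphatidic acid, by -0.67 ± 0.31 and -0.46 ± 0.45 (SD, n = 3). With T0070907 alone, PKNOX2 and RCAN3 also stood below vehicle on average after a length correction, with values given below. NIBAN1, a stress-responsive gene, was at 88.4, 53.8 and 73.4 CPM with vehicle, 54.9, 38.2 and 45.9 CPM with RGZ and 63.1, 48.1 and 58.2 CPM with the combination. A gene listed only by its NCBI number, 643314, differed from these, since it was at -0.63 with RGZ and -1.36 ± 1.04 (SD, n = 3) with the combination, where it was at 2.14 CPM in experiment 1. Further lower members with many counts were CENPF, a kinetochore protein, at -0.34 ± 0.04 with RGZ and -0.31 ± 0.29 with the combination (SD, n = 3), and MYOF, a membrane repair protein, at -0.31 ± 0.08 and -0.30 ± 0.23 (SD, n = 3). Neither met the rule under TMM or after the length correction.

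Among the higher members, MAPK13, the delta form of p38 kinase, had the largest increase. It was at 3.80, 7.45 and 1.55 CPM with vehicle, 4.96, 14.4 and 4.56 CPM with RGZ and 4.03, 10.8 and 3.70 CPM with the combination, and the groups overlapped because the experiments differed. HMOX1, which encodes heme oxygenase and is a target of NRF2, was at 22.9, 21.5 and 19.0 CPM with vehicle and at 32.4, 32.0 and 24.4 CPM with RGZ. It was at 32.0, 23.7 and 22.6 CPM with T0070907 and at 38.1, 29.8 and 24.7 CPM with the combination. All 3 RGZ and all 3 combination libraries lay above all 3 vehicle libraries, and T0070907 alone was above vehicle in each experiment.

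SCD, the desaturase that makes monounsaturated fatty acids, was at 384, 491 and 348 CPM with vehicle, 494, 583 and 452 CPM with RGZ, 370, 518 and 323 CPM with T0070907 and 449, 624 and 421 CPM with the combination. Its differences were even between experiments, at 0.33 ± 0.07 (SD, n = 3) with RGZ and 0.28 ± 0.06 (SD, n = 3) with the combination. S100A4, a calcium-binding protein linked to metastasis, was at 261, 365 and 337 CPM with vehicle, 344, 475 and 476 CPM with RGZ, 227, 282 and 310 CPM with T0070907 and 348, 378 and 449 CPM with the combination. Its combination minus vehicle was 0.41 in experiments 1 and 3 and 0.05 in experiment 2. Further large increases were C16orf74 (0.49 with RGZ and 0.29 with the combination), ACADS, a dehydrogenase of short-chain fatty acid oxidation (0.48 and 0.34), ERAP2, a peptidase that trims antigens (0.47 and 0.26), MIRLET7BHG, a host transcript of let-7 microRNAs (0.46 and 0.40), TMEM53 (0.43 and 0.34) and DISP1, which releases hedgehog ligands (0.42 and 0.23).

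**Figure D2:**
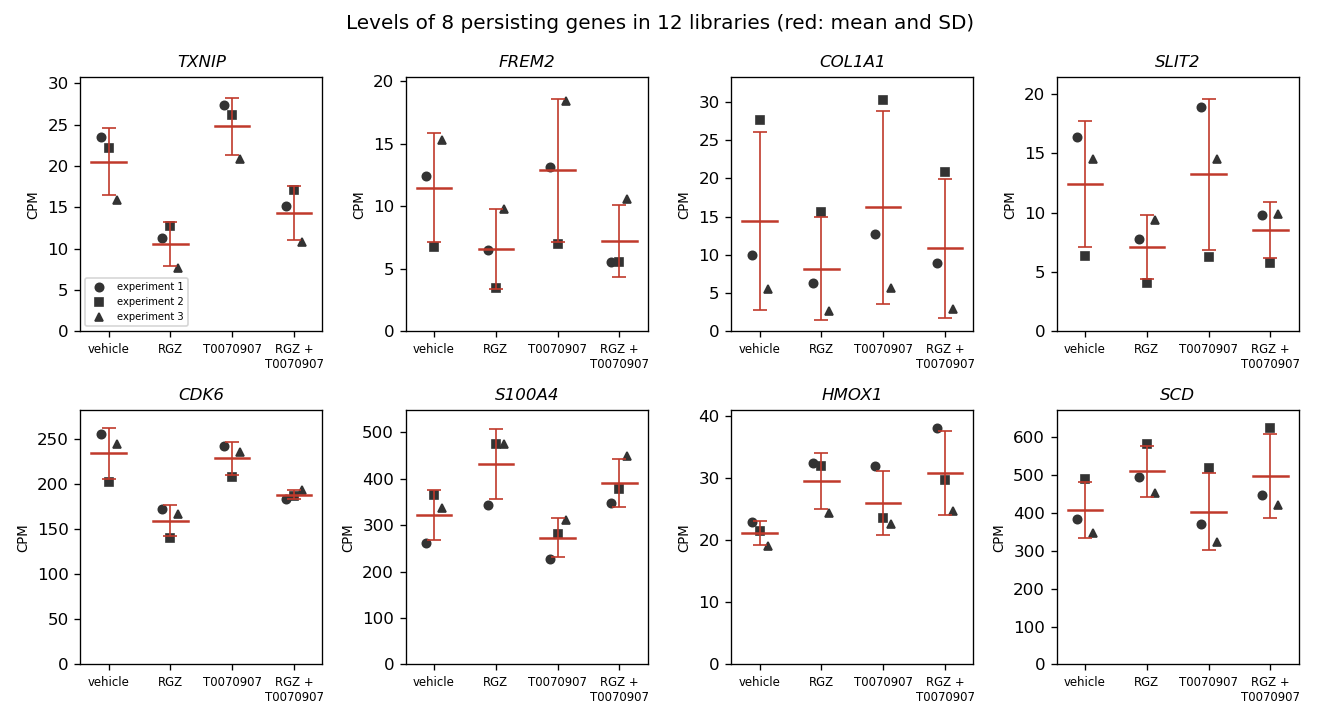
Levels in CPM on the y axis of 8 persisting genes in the 4 conditions on the x axis, with a symbol for each experiment and the mean and SD over 3 experiments in red. TXNIP, FREM2, COL1A1, SLIT2 and CDK6 are lower, and S100A4, HMOX1 and SCD higher, with RGZ and with RGZ + T0070907 than with vehicle of the same experiment.

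The differences were not even across experiments. For the 165 lower members the median RGZ minus vehicle was -0.40, -0.42 and -0.37 in experiments 1, 2 and 3, whereas the median combination minus vehicle was -0.48, -0.13 and -0.31. For the 33 higher members the medians were 0.35, 0.45 and 0.38 with RGZ and 0.40, 0.18 and 0.26 with the combination. Experiment 2 therefore gave the smallest difference between the combination and vehicle in both directions. Without experiment 1 the rule gave 230 genes, 110 of them among the 198, without experiment 3 it gave 260, with 134 of the 198, and without experiment 2 it gave 587, with 145 of the 198. The sign conditions and the mean CPM then covered only the remaining experiments, so that fewer signs had to match and the rule was looser. Among the 34 members chosen for naming by size, counts, calls or lists, the mean combination minus vehicle moved by over 1.5 times in 10 without experiment 1, in 0 without experiment 2 and in 3 without experiment 3. Without experiment 1 it was -0.38 for FREM2, -0.19 for THBS1, -0.24 for ZFHX3, -0.81 for gene 643314, -0.16 for CENPF, -0.20 for MYOF, -0.19 for EGR3, -0.13 for DDR2, 0.11 for HSPA1A and 0.18 for C16orf74. Without experiment 3 it was -0.28 for COL1A1, -0.23 for LPAR1 and 0.29 for MAPK13. RGZ minus vehicle moved as far only for C16orf74 and EGR3, without experiment 2, to 0.30 and -0.20.

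**Figure D3:**
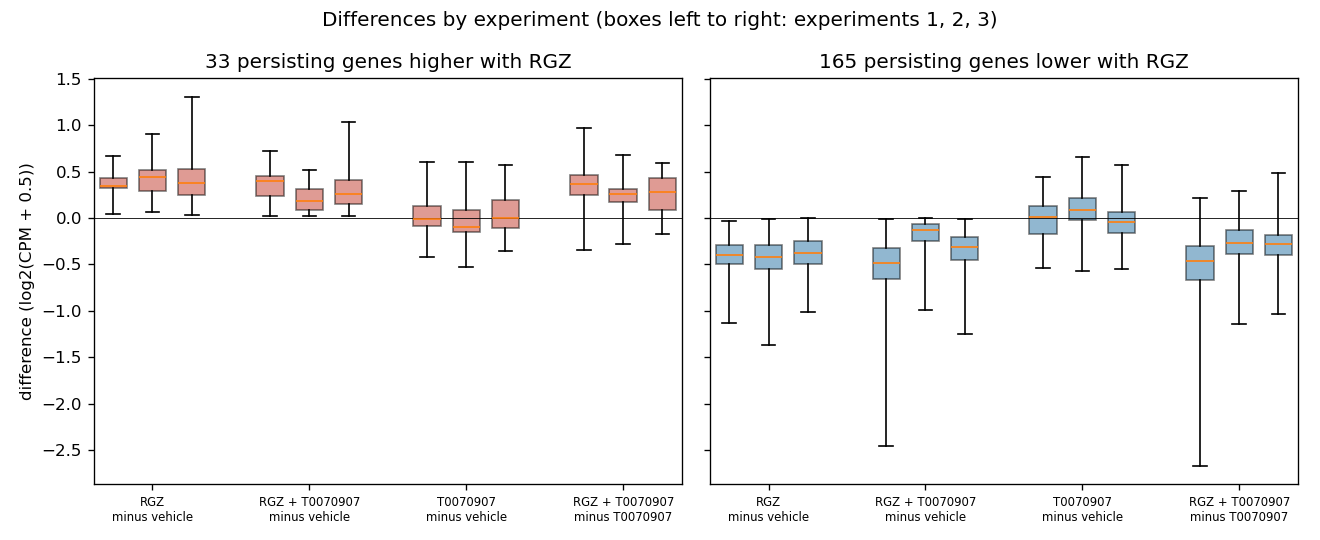
Differences in log2(CPM + 0.5) on the y axis of the 33 higher (red) and 165 lower (blue) persisting genes for 4 comparisons on the x axis, with a box for experiments 1, 2 and 3 from left to right. Boxes span the middle 50% with the median, whiskers reach the lowest and highest gene, and RGZ + T0070907 minus vehicle is smallest in experiment 2.

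The members differed from other genes in transcript length. The longest annotated transcript had a median of 6112 nt in the lower members and 1970 nt in the higher members, against 3759 nt for all genes with 5 CPM or more. Of the lower members with a known length, 57.1% were among the longest 25% of those genes, against 32.6% of the 739 lower genes that did not persist. Of the higher members 63.6% were among the shortest 25%, against 26.0% of the 366 higher genes that did not persist. GC content of the transcripts had a median of 45.5% in the lower members, 58.4% in the higher members and 47.9% in all.

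Across all genes with 5 CPM or more and a known length, the combination libraries moved with length in the same experiments in which the members differed most. The median combination minus vehicle went from 0.20 in the shortest 25% to -0.34 in the longest 25% in experiment 1, and from 0.10 to -0.17 in experiment 3. In experiment 2 it was -0.00012 in the shortest and 0.02 in the longest 25%. T0070907 minus vehicle rose with length in experiment 2, from -0.05 to 0.10. Combination minus T0070907 fell with length in 3 of 3 experiments, from 0.19 to -0.33, from 0.05 to -0.08 and from 0.04 to -0.13 in experiments 1, 2 and 3. RGZ minus vehicle in the longest 25% was -0.12, -0.07 and -0.11 in the 3 experiments. After each library was corrected for this trend with length, the rule gave 112 genes, 39 higher and 73 lower, and 18 of the 33 higher and 54 of the 165 lower members remained, of which 50 lower members had a known length. Scaling the libraries by TMM, which sets a trimmed mean of the genes equal, gave 61 higher and 97 lower genes (38.6% higher, against 16.7% with totals) and kept 33 and 92 members. The part of transcript length in the members' differences was not tested.

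**Figure D4:**
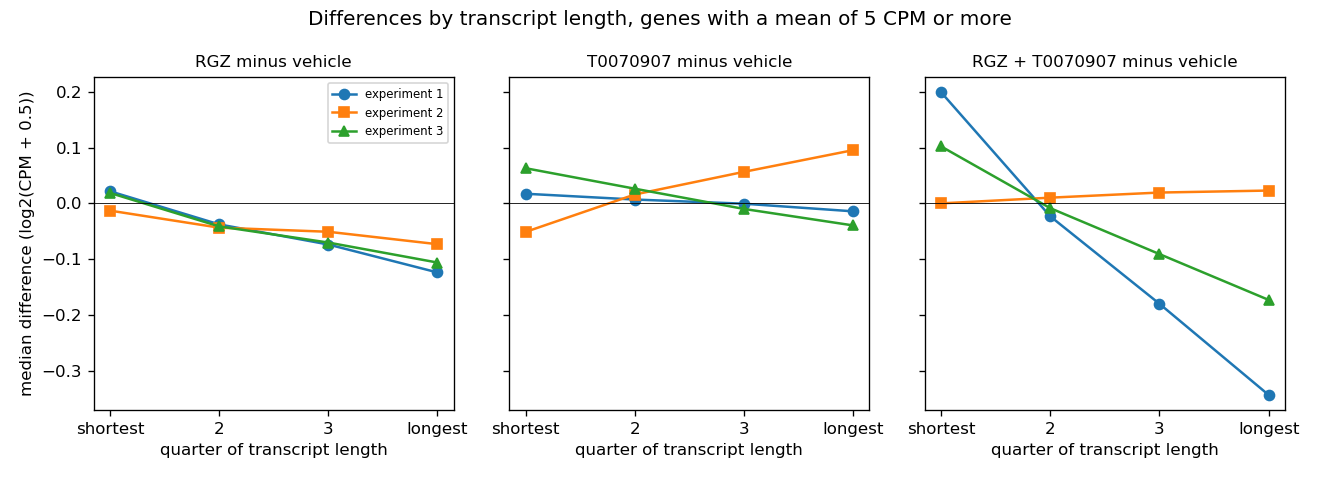
Median difference from vehicle in log2(CPM + 0.5) on the y axis for genes with a mean of 5 CPM or more, split into 4 equal classes of transcript length on the x axis, with a line for each experiment. For RGZ + T0070907 the line of experiment 1 runs from 0.20 to -0.34 and that of experiment 3 from 0.10 to -0.17, and that of experiment 2 is flat.

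Under TMM and under corrections for length and for length with GC content, 17 higher and 42 lower members met the rule each time. The corrections could not act on 4 lower members with no known length, gene 643314 among them, so that 38 of the 42 lower members were in fact put to all of these changes. Among the named genes with a known length these were MAPK13, HMOX1, SCD, ERAP2, MIRLET7BHG, TMEM53, DISP1 and PSMB10 in the higher direction and TXNIP, FREM2, LPAR1, PKNOX2 and ZNF611 in the lower direction. With the length correction TXNIP differed by -0.90 with RGZ and -0.51 with the combination, HMOX1 by 0.47 and 0.43, and SCD by 0.41 and 0.39. S100A4 no longer met the rule, at 0.37 and 0.09, nor did THBS1, at -0.41 and -0.18, or CDK6, at -0.43 and -0.10. ACADS did not meet it either, at 0.49 and 0.26, with a combination minus vehicle of -0.006 in experiment 1. With the correction for length and GC content its combination minus vehicle was 0.21. Among the 34 members chosen for naming, the mean combination minus vehicle moved by over 1.5 times in 14 with the length correction and in 17 with the correction for length and GC content, whereas RGZ minus vehicle moved as far in CENPF alone with either. Beside S100A4 and THBS1, the 14 were, with their length-corrected combination minus vehicle, FREM2 (-0.38), NIBAN1 (-0.17), MYOF (-0.16), PTPN14 (-0.15), ZFHX3 (-0.14), CENPF (-0.11) and DDR2 (-0.11) among the lower members. Among the higher members they were PSMB10 (0.24), SLC25A1 (0.17), C16orf74 (0.15), TIMP1 (0.13) and AVPI1 (0.08).

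T0070907 alone addressed a separate question, whether the antagonist moved these genes by itself. The rule used its libraries only in the mean CPM over 12 libraries, whereas the vehicle libraries also entered the differences that chose the members. The combination libraries, which received T0070907 too, had to keep the sign of RGZ. The rule thereby tended to leave out genes that T0070907 moved against RGZ. The contrast of medians between members and genes that did not persist is therefore partly set by the selection. The median T0070907 minus vehicle was -0.02 for the higher and 0.0032 for the lower members, against -0.24 and 0.14 for the higher and lower genes that did not persist and 0.02 for all genes with 5 CPM or more. In the quasi-likelihood test of edgeR, with Benjamini-Hochberg adjusted p-values over 13522 genes, all 198 members were tested and 0 of them differed between T0070907 and vehicle at an adjusted p under 0.05 (4 at an unadjusted p under 0.05), where 0.0074% of all genes were called, and DESeq2 without the block also called 0. With the experiment as a replicate block, which sets libraries of the same experiment against each other, 0.91% of all genes and 1 member were called. This was NIBAN1, which was higher by 0.29 (SE 0.06, adjusted p = 0.0325 in edgeR's quasi-likelihood test with the block) at 102, 73.1 and 89.8 CPM, above vehicle in 3 of 3 experiments. Its fold change without the block, 0.28, was 0.11 without the vehicle library of experiment 2, 0.16 without the T0070907 library of experiment 1 and 0.46 without the vehicle library of experiment 1. DESeq2 with the block called 0 members here. Without experiment 2 the blocked test called THBS1 instead, and without experiment 3 it called 0 members. With the length correction the blocked edgeR test called NIBAN1, DDR2 and S100A4, beside 1.54% of all genes. DDR2 was higher with T0070907 (0.30, SE 0.07, adjusted p = 0.0311) and S100A4 lower (-0.25, SE 0.05, adjusted p = 0.0074). TXNIP (0.26, SE 0.09) had an adjusted p of 0.295 and HMOX1 (0.28, SE 0.10) of 0.325 in the edgeR test with the block.

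RGZ in the presence of the antagonist was compared with the antagonist alone. The combination libraries were also used by the rule, so the direction in the members, the number of them called and their p-values are partly set by the selection and describe the members. The median combination minus T0070907 was 0.28 in the higher and -0.34 in the lower members, and -0.05 over all genes with 5 CPM or more. Without the block, edgeR's quasi-likelihood test called 0 members (76 at an unadjusted p under 0.05) and 0.037% of all genes, and DESeq2 without the block called 3 of the 31 members to which it gave an adjusted p. With the block, 70 of 198 members were called (8.76% of all genes), of which 16 were higher members called higher and 54 were lower members called lower, where 4.55% of all genes were called higher and 4.22% lower. With the length correction and the block 32 members were called, 31 of them among these 70, beside 7.91% of all genes, 870 higher and 200 lower, against 615 higher and 570 lower without the correction. Without experiment 3 the blocked test called 1 member (NIBAN1) and 0.133% of all genes, without experiment 1 it called 20 and 2.04%, and without experiment 2 it called 80 and 16.4%, so that the count of members moved with that of all genes.

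The members with the lowest adjusted p-values for this comparison were the following, by edgeR's quasi-likelihood test with the block. NIBAN1 was lower (log2 fold change -0.59, SE 0.06, adjusted p = 5.19e-05), as was TXNIP (-0.75, SE 0.10, adjusted p = 0.000216). TXNIP and NIBAN1 were lower in the combination than in T0070907 in 3 of 3 experiments, and their 3 combination libraries all lay below their 3 T0070907 libraries. The phosphatase PTPN14 (-0.50, SE 0.08), the collagen receptor kinase DDR2 (-0.59, SE 0.09) and protein kinase D1, PRKD1 (-0.72, SE 0.12), were also lower. DDR2 was at 61.6, 48.0 and 43.4 CPM with T0070907 and 29.8, 35.4 and 31.8 CPM with the combination, and T0070907 alone was above vehicle (47.2, 36.5 and 37.1 CPM) in each experiment.

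In the higher direction, S100A4 (0.58, SE 0.07) had an adjusted p of 0.00016 and SCD (0.36, SE 0.06) of 0.00122 in the blocked edgeR test. AVPI1, named for its induction by vasopressin (0.47, SE 0.08), the immunoproteasome subunit PSMB10 (0.46, SE 0.08) and the mitochondrial citrate carrier SLC25A1 (0.44, SE 0.08) followed. PSMB10 was at 34.1, 41.2 and 32.9 CPM with T0070907 and 47.9, 49.4 and 46.3 CPM with the combination, without overlap. S100A4 with T0070907 alone was below vehicle in each experiment, which is part of its difference here, and its length-corrected combination minus vehicle was only 0.09. After the length correction these 10 named genes were still called, with TXNIP at -0.73 (SE 0.09), NIBAN1 at -0.42 (SE 0.06), PTPN14 at -0.27 (SE 0.05), DDR2 at -0.38 (SE 0.07), SCD at 0.48 (SE 0.05) and S100A4 at 0.38 (SE 0.05). Some other named members were not called after this correction. PKNOX2 was at 0.11 (SE 0.18), RCAN3 at -0.03 (SE 0.13), EGR3 at 0.04 (SE 0.15), THBS1 at 0.08 (SE 0.07) and HMOX1 at 0.21 (SE 0.09). Their T0070907 against vehicle was -0.38 (SE 0.17), -0.27 (SE 0.13), -0.22 (SE 0.14), -0.22 (SE 0.07) and 0.27 (SE 0.09) in that order, also not called.

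**Figure D5:**
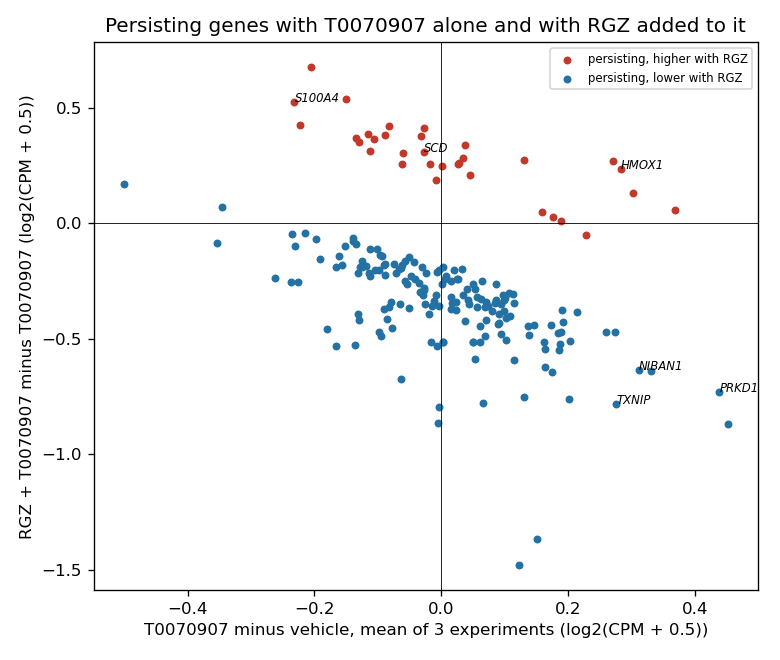
Mean T0070907 minus vehicle on the x axis and mean RGZ + T0070907 minus T0070907 on the y axis, in log2(CPM + 0.5), for the 33 higher (red) and 165 lower (blue) persisting genes. Red points lie above 0 for 32 of 33 genes and blue points below 0 for 163 of 165, and the slope between the axes is partly arithmetic because both hold the T0070907 libraries.

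Both arms of the combination against RGZ alone were used by the rule, and its calls only describe the members. Without the block edgeR's quasi-likelihood test called 0 members (0 at an unadjusted p under 0.05) and 1.24% of all genes, DESeq2 without the block called 0 members, and edgeR with the block called 3 members and 11.4% of all genes. The 3 members were lower with RGZ and less low with the combination, and their adjusted p-values in the blocked edgeR test were 0.0139 for NIBAN1 (0.27, SE 0.07), 0.0160 for CDK6 (0.22, SE 0.06) and 0.0196 for TXNIP (0.43, SE 0.11). CDK6, a kinase of G1 phase named here after its values were seen, was at 256, 202 and 244 CPM with vehicle, 172, 140 and 167 CPM with RGZ and 184, 187 and 194 CPM with the combination. All 3 combination libraries of CDK6 lay above all 3 RGZ libraries and below all 3 vehicle libraries. Without experiment 3 the blocked test called 0 members and 3.8% of all genes. With the length correction it called 16 members (8.08%), including S100A4 and THBS1, and 13.8% of all genes.

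For the contrasts that made the selection, edgeR's quasi-likelihood test called 1.24% of all genes and 3 members (CDK6, PEMT and FAM111A) for RGZ against vehicle without the block, and 9.3% of all genes and 94 members with it. With the length correction and no block 3 members were called as well, all higher, PEMT among them, and CDK6 and FAM111A were not. With the length correction and the block it called 72 members and 13% of all genes, 1246 higher and 518 lower against 670 higher and 588 lower without the correction. For the combination against vehicle it called 0% of all genes and 0 members without the block and 0% and 0 members with it, although 1438 and 2868 genes, 70 and 139 of them members, had an unadjusted p under 0.05. With the length correction and the block 4 genes were called there, SCD among them. The interaction of both compounds, a test of whether the RGZ change depends on the antagonist, shares the RGZ, vehicle and combination values with the rule. Its calls among the members therefore depend in part on how they were chosen and are given as a description. It called 0 members without the block (0 at an unadjusted p under 0.05) and 0 with it (10 at an unadjusted p under 0.05), and 38 genes in all with it, by edgeR, which alone was run for it.

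The members were counted in lists of known pathways, beside 1.81% of all genes with 5 CPM or more and 15.2% of the 1303 RGZ changes that were members. Of 32 PPAR target genes in the table, 23 had 5 CPM or more, 14 were higher and 1 lower with RGZ, and the lower one, TXNIP, was the only member. None of the 14 higher PPAR targets persisted, where 8.27% of all genes higher with RGZ did, and nothing is read from the count. Of 33 integrin and matrix genes with 5 CPM or more, 11 were higher and 7 lower with RGZ, and 3 were members, a count from which nothing is read. These were COL1A1, THBS1 and TIMP1, an inhibitor of matrix proteases that was higher (0.42 with RGZ and 0.28 with the combination). None of these 3 met the rule after the length correction, while all 3 did under TMM and COL1A1 did with the correction for length and GC content. Of the 24 MAPK output genes with 5 CPM or more, 4 were higher and 5 lower with RGZ. The transcription factors EGR3 (-0.32 and -0.30) and ETV5 (-0.30 and -0.21) were members, and neither met the rule under TMM or either correction. Fatty acid synthesis held SCD among 16, the NRF2 targets HMOX1 among 23, the mitosis genes CENPF among 25 and the guidance genes SLIT2 among 26. The heat shock list held HSPA1A among 16 (0.39 and 0.22), whose reads may be shared with its near-identical copy HSPA1B. Of these, SCD and HMOX1 met the rule after the length correction and SLIT2, HSPA1A and CENPF did not. The lists of cholesterol synthesis, ATF4 response, chaperones of the endoplasmic reticulum, p53, hypoxia, cytokines, interferon, TGF-beta, S phase, respiratory chain, lysosome, histones and membrane transport held 0 members. Of the higher members 30 were protein-coding and 3 were long noncoding RNAs, and of the lower members 153 were protein-coding, 6 long noncoding RNAs and 5 pseudogenes. Genes named ZNF, a group picked after the members were seen, made up 13 of the 165 lower members (7.88%), against 4.19% of the lower genes that did not persist and 3.19% of all genes with 5 CPM or more.

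The label of the cells was checked against marker genes. SOX10 (173 to 438 CPM over the libraries), MITF (23.8 to 61.5 CPM) and PAX3 (15.0 to 19.8 CPM) of the melanocyte lineage were present, whereas the pigment genes TYR (0 in all libraries), MLANA (at most 0.691 CPM) and DCT (at most 0.115 CPM) were at or near 0. Markers of blood (PTPRC, CD3E and HBB), of keratinocytes (KRT1, DSG3 and TP63) and of fibroblasts (THY1) stayed at or below 0.576 CPM. Other markers of these lists were detected at low levels, with KRT5 at most 2.86 CPM, PDGFRA at most 2.68 CPM, DCN at most 2.37 CPM, LUM at 3.05 to 7.56 CPM and LYZ at 3.97 to 16.4 CPM. The endothelial markers PECAM1, CDH5, VWF and TEK were at or below 2.04 CPM, and KDR was at 1.11 to 9.14 CPM. KRT10 (70.1 to 87.8 CPM), CD68 (33.8 to 94.7 CPM), KRT14 (5.22 to 37.7 CPM) and PDGFRB (6.34 to 24.8 CPM) were present. The summed fibroblast list, which holds the member COL1A1, ranged from 26.5 to 55.7 CPM with vehicle from 17.0 to 34.3 CPM with RGZ, from 32.7 to 63.2 CPM with T0070907 and from 20.6 to 45.3 CPM with the combination, and its part in the COL1A1 result was not tested.

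Genes next to the limits of the rule had much the same values on either side. Just inside the limit of 5 CPM were ZNF611 (5.09 CPM) and MIRLET7BHG (5.24 CPM), and just outside it ZNF600 and NR4A2 (4.89 CPM each). ZNF845 and PDE4DIP had a size of 0.3002 and 0.3013, and HTATSF1P2 and NOTCH1 of 0.2987 and 0.2984. CTH kept 50.04% and MCC 51.2% of the RGZ change, and FBXO43 and TANC2 kept 49.95% and 49.93%.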

How the data were processed

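Total RNA of A375 cells was prepared with Trizol, and libraries made with the TruSeq RNA protocol were sequenced on an Illumina HiSeq machine. The deposited table holds raw, unnormalized counts of 23705 NCBI gene numbers, and the submitters' processing notes name hg19. The aligner, the counting tool and its use of strand are not given in the sources used here. The table held 0 columns of other samples.

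EdgeR 4.0.16 in R 4.3.3 gave the tests (TMM, filterByExpr, quasi-likelihood test of all 12 libraries in 4 groups), with limma 3.58.1 (voom) and DESeq2 1.42.0 as alternatives. SE is the size of the log2 fold change divided by the square root of F. Symbols matched 23538 numbers and 197 members. Lengths and GC content came from the longest GENCODE transcript (99.2% of genes with 5 CPM or more), promoters from RefSeq. The corrections fitted loess curves (span 0.3) to each library and, like leaving out experiments from the blocked test, were chosen after seeing the data.

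Experiment numbers in the labels mark shared experiments, and same-experiment deviations correlated at 0.554 on average (0.0793 to 0.758 over 18 pairs), so the block pairs the libraries. P-values measure the spread between 3 experiments on 1 line. The members and lists were chosen with earlier results of these data known. Named were the 10 largest increases and decreases, the 5 members with most counts, up to 5 called members in each direction for T0070907 against vehicle and the combination against T0070907, members in lists, genes beside the limits, and PPARG, FABP4 and TXNIP, apart from a gene that is not reported here.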

Additional observations from a re-analysis of the deposited data

How the results depend on the processing

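The rule gave 198 genes. It gave 347 with a minimum of 1 CPM, 33 with a minimum size of 0.5, 100 with a minimum of 75% of the RGZ change, 112 with the length correction, 110 with the correction for length and GC content, and from 230 to 587 when an experiment was left out and fewer signs had to match. Other scalings, pseudocounts and a minimum of 10 CPM gave 138 to 209.

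Members called for T0070907 against vehicle, 0 without the block, were 1 with the replicate block, 1 with limma-voom and the block, 0 with DESeq2 with or without the block, 3 and 4 with the block and the corrections for length and for length with GC content, and 1, 1 and 0 with the block and without experiments 1, 2 and 3. The share of all genes called was 0.91% with the block, 0.806% with limma-voom, 0.828% with DESeq2 and the block, 1.54% and 1.88% with the corrections, and 0.744%, 0.944% and 0.074% without the experiments. For the combination against T0070907, 0 members without the block became 70 with it, 3 with DESeq2 (adjusted p given to 31 members), 56 with DESeq2 and the block (170 members), 63 with limma-voom and the block, 32 and 33 with the block and the 2 corrections, and 20, 80 and 1 without experiments 1, 2 and 3. All genes were called in shares of 8.76%, 1.89%, 8.47%, 7.46%, 7.91%, 9.39%, 2.04%, 16.4% and 0.133% in the same order. For the combination against RGZ, 0 became 3 with the replicate block, 2 with DESeq2 and the block, 3 with limma-voom and the block, 16 and 21 with the corrections, and 7, 9 and 0 without experiments 1, 2 and 3, where the shares of all genes were 11.4%, 7.92%, 10.8%, 13.8%, 15.2%, 6.92%, 16.6% and 3.8%. Leaving out single libraries without the block left 0 members called for these 3 comparisons. The replicate block changed the calls of edgeR in each of these comparisons, and those of DESeq2 in the last 2; the cause of the shifts was not tested.

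For 34 of the named members the differences from vehicle were recomputed under the alternatives, and no mean over experiments changed sign, nor did any of 14 fold changes from tests. Other members named in the text were not put to this. With other pseudocounts or an experiment left out, the means could not change sign, since the rule required 1 sign in 3 of 3 experiments. Only TMM and the corrections could turn them. In single experiments signs did turn with the length correction, among others for COL1A1 (0.15 in experiment 1) and C16orf74 (-0.04 in experiment 3) in combination minus vehicle. A gene with 3 counts, the floor used here, stood at 0.264 to 0.361 CPM. Members reached 5 CPM as a mean and stood lower in single libraries (MAPK13 at 1.55 CPM), and pseudocounts of 1 and 0.1 CPM gave 181 and 209 genes.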
